A study of Rattus norvegicus with 24 samples.

Results

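The insulin-like growth factor (IGF) axis was represented on the custom rat array by 10 genes: the ligands *Igf1* and *Igf2*, the receptors *Igf1r* and *Igf2r*, and the binding proteins *Igfbp1* to *Igfbp6*. Its probes were found by gene name, as all probes other than controls that carried the name of an IGF ligand, an IGF receptor or a numbered IGF binding protein. They are 10 of the 7250 genes of the array and were read by 12 of its 8453 probes, 2 each for *Igf1* and *Igfbp5* and 1 for every other gene, on 28 of 15208 spots. The study modelled the graft versus host reaction in skin, in which donor lymphocytes attack the tissue of a recipient. From each of 12 male BN rats aged 15 weeks, 1 explant of paw skin freed of subcutaneous fat was cultured for 3 days with syngeneic BN lymphocytes, and another with pre-stimulated allogeneic lymphocytes of the PVG strain. The lymphocytes of both groups came from a mixed lymphocyte reaction of 7 days, so both explants of a rat were exposed to cultured lymphocytes. Both RNA samples of a rat were hybridized together on 2 arrays with the Cy3 and Cy5 dyes swapped, which gives 24 arrays and n = 12 rats. The RNA was that of the whole explant, with any lymphocytes left after washing, so that fewer cells of a type and less RNA per cell cannot be told apart.

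IGF-1 and IGF-2 are small secreted growth factors related to insulin. Both signal mainly through the receptor tyrosine kinase IGF1R, which feeds the PI3K/Akt and Ras/MAP kinase pathways, whereas IGF2R binds IGF-2 and carries it to the lysosome without such signaling. The IGF binding proteins hold the ligands in tissue fluid and serum, and either limit or prolong their action. In skin, IGF-1 is made by cells of the dermis, including fibroblasts and macrophages, and acts on the keratinocytes of the epidermis.

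The values below are those of 60-base probes, whose sequences define what was measured. The sequences are printed in lower case, 5′ to 3′, with no part marked by capitals. The 2 *Igf1* probes are shown because the largest change of the axis was seen with them, and those of *Igf1r*, *Igfbp3* and *Igfbp5* because the results on the receptor and the binding proteins turn on them. The *Igf1* probe 1 and *Igf1r* probes are printed whole, and of the others the first 30 bases are given.
Igf1 probe 1: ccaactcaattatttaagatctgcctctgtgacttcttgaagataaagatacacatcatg
Igf1 probe 2: agcaacctgcaaaacatcggaacacctgcc
Igf1r: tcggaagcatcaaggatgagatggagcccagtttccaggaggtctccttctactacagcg
Igfbp3: acgccttattttgcacaaaagactgccaac
Igfbp5 probe 1: ttacgatttaaagcacagtagaagggaaag
Igfbp5 probe 2: accccggaaacgtattcctatttgaagcaa

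In the coordinates of the array design (rat genome build rn3), *Igf1* probe 1 lies at chr7:24552241-24557334, listed in ascending order. Its 60 bases span 5094 bases of the genome, so the probe crosses an intron. Probe 2 lies at chr7:24624986-24625045, 67652 bases further on, so that the 2 probes read separate stretches of the *Igf1* transcripts. The *Igf1r* probe lies at chr1:123067493-123067552, listed in ascending order. Some members are neighbors. The probes of *Igfbp1* and *Igfbp3* (chr14:87979639-87979698, listed in descending order) are 5444 bases apart, and the probe of *Igfbp2* is 6127 bases from probe 1 of *Igfbp5* (chr9:72147294-72147353, listed in descending order). Probe 2 of *Igfbp5* lies at chr9:72150641-72150700, also listed in descending order. No exon annotation of this build was used here. The longest run of bases that a probe of the axis had in common with any other was 6 to 9, so the members do not share a target sequence.

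All 12 probes entered the test, since no filter on low values was set. On all 24 arrays, 11 of them were well above background in both samples, and *Igfbp5* probe 2 was so on 20 arrays for the allogeneic and on 18 for the syngeneic sample. None was saturated. The median spot intensity was 135 to 6668 in Cy3 and 269 to 25642 in Cy5, with array 1 of rat 10 at the top of both ranges. That array stood far above the others, of which the highest were at 216 in Cy3 and 415 in Cy5. In both samples, rat 10 also set the lowest levels of *Igf2*, *Igf2r*, *Igfbp1* and *Igfbp4*. It set the highest levels of *Igf1r* and *Igfbp5* probe 2 as well. Rat 8 stood apart. Over all probes its log2 ratios correlated with those of the other rats at 0.0998 to 0.241, against 0.285 to 0.823 between the other 11 rats, while its own 2 arrays correlated at 0.944. That was the highest such value. The 2 arrays of a rat correlated at a median of 0.674, and those of rat 10 the least, at 0.133. Where the call of an axis probe changed without rat 8, or with rat 10 read from its array 2 only, both values are given.

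The signs below follow the dye labels and are opposite to those in the study's tables: a value below 0 stands for a weaker signal where the label reads allogeneic. Which of the directions is right was not settled from the files. The study also reported qRT-PCR on part of these explant pairs, for genes outside the IGF axis. It found most of those genes changed in the direction of its tables. Among them *Aif1* was higher in the allogeneic explants by that qRT-PCR. With the signs used here *Aif1* was at -1.27 ± 0.50 (SD, n = 12 rats), below 0 in 12 of 12 rats. The study's table also gives a larger change for *Igf1* than the one found here. With the sign turned, every decrease reads as an increase and the reverse. That *Igf1* moved one way and the binding proteins *Igfbp3*, *Igfbp4* and *Igfbp5* the other does not depend on this choice. A probe was called regulated at a p-value under 0.05 in limma after Benjamini-Hochberg adjustment over all 8453 probes, of which 17.3% were called, 8.48% as lower and 8.78% as higher in the allogeneic sample. Of the 12 IGF axis probes 6 were called, the 2 of *Igf1* as lower and 4 probes of binding proteins as higher. The median log2-fold change was 0.12 over the axis probes and 0.01 over all probes.

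**Figure D1:**
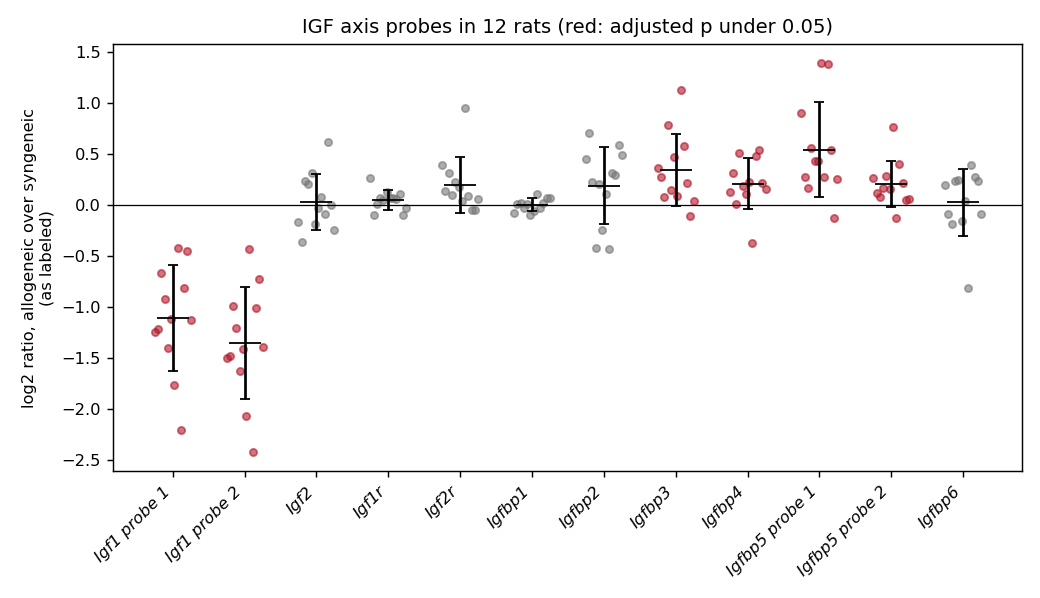
The log2 ratio of the allogeneic over the syngeneic explant is plotted for each IGF axis probe, with a point for each of the 12 rats and a bar for the mean ± SD, and red marks an adjusted p under 0.05. Both *Igf1* probes lie below 0 in every rat, between -2.42 and -0.42, and the 4 red binding protein probes lie above 0 in 11 of 12 rats each.

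*Igf1* showed the largest change of the axis. With probe 2, the normalized log2 intensity in the allogeneic explants was 12.45 in the lowest rat, 12.79 at the median and 13.10 in the highest. In the syngeneic explants it was 13.17, 13.99 and 15.17. The lowest syngeneic explant was thus above the highest allogeneic one, a separation without overlap that 12 of all 8453 probes (0.142%) had, 10 of them in this direction (0.118%). The mean levels were 12.76 ± 0.20 and 14.11 ± 0.61 (SD, n = 12 rats), so the spread between rats was wider in the syngeneic explants. Within rats the log2-fold change was -1.35 ± 0.55 (SD, n = 12), a 2.56-fold lower signal in the allogeneic sample, and was below 0 in 12 of 12 rats (limma, adjusted p = 1.15e-04). It ranked 28 in size among all probes. A call together with a change of 2-fold or more was made for 0.651% of all probes and, in the axis, for the 2 of *Igf1* and no other.

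The other *Igf1* probe moved in the same way. Its log2 intensity was 8.46, 10.19 and 10.57 (lowest, median and highest rat) in the allogeneic and 9.26, 11.14 and 12.34 in the syngeneic explants, and here the groups overlapped, with rat 10 the lowest in both. The log2-fold change was -1.11 ± 0.52 (SD, n = 12), or 2.16-fold lower, again in 12 of 12 rats (limma, adjusted p = 2.53e-04). The same sign in all 12 rats was seen for 6.19% of all probes (3.55% in this direction), and in the axis for those of *Igf1* alone. Rat 9 had the largest change with both probes (-2.20 and -2.42) and rat 8 the smallest (-0.42 and -0.43). The 2 probes ranked the size of the change in the rats almost alike (Pearson r = 0.989 over 12 rats, given as a description since both were read on the same arrays), but the change was 0.24 ± 0.08 (SD) larger with probe 2 in every rat (difference -0.24, exact sign-flip permutation test, two-sided p = 4.88e-04, the smallest that 12 rats allow, adjusted p = 9.77e-04 over 2 such comparisons). The difference was -0.43 with the allogeneic sample in Cy5 and -0.05 with it in Cy3 (exact p = 0.0591), so its size was not the same in both orientations. As a gene, the mean of both probes was -1.23 ± 0.53 (SD, n = 12, limma, adjusted p = 1.70e-04), rank 25 by size of 7250 genes. The change was of like size on the 3 slides, each of which held 4 rats, with means of -1.29, -1.38 and -1.39 for probe 2. It was also present in both dye orientations, at -1.42 and -1.28, with 12 of 12 arrays below 0 in each. Without rat 8 it was -1.44, and with array 2 only for rat 10 it was -1.38.

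**Figure D2:**
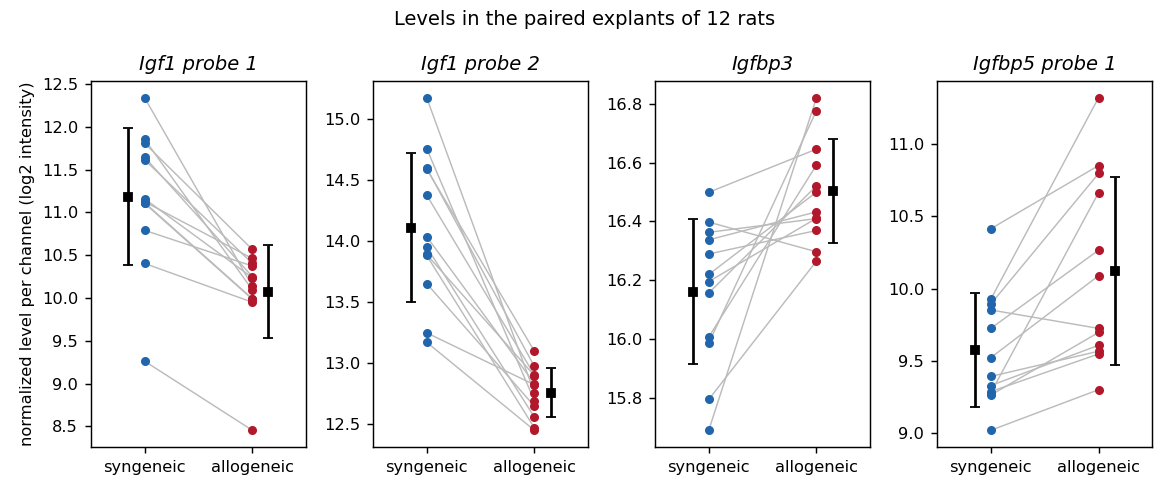
Normalized log2 intensities per channel are shown for both *Igf1* probes, *Igfbp3* and *Igfbp5* probe 1 in the syngeneic (blue) and allogeneic (red) explants, with lines joining the 2 explants of a rat and squares with bars for the mean ± SD of 12 rats, and each panel has its own scale. For *Igf1* probe 2 the groups do not overlap (13.17 to 15.17 against 12.45 to 13.10), and in the other panels they do.

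*Igf2*, the growth factor of fetal tissue that also acts in adults, did not pass the test. Its log2 intensity ran from 8.80 to 11.30 (median 10.62) in the allogeneic and from 8.18 to 11.28 (median 10.76) in the syngeneic explants. The log2-fold change was 0.03 ± 0.28 (SD, n = 12 rats, limma, adjusted p = 0.81), with a 95% confidence interval of -0.14 to 0.21 and 5 of 12 rats above 0. This interval does not reach the size of the *Igf1* change.

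Neither receptor was called. *Igf1r*, the signaling receptor of both ligands, had a log2 intensity of 8.90 to 9.85 (median 9.03) in the allogeneic and 8.88 to 9.74 (median 9.00) in the syngeneic explants. Its log2-fold change was 0.05 ± 0.10 (SD, n = 12 rats, limma, adjusted p = 0.245), and the 95% confidence interval of -0.01 to 0.12 was narrower than those of the other axis probes except *Igfbp1*. The value differed between the dye orientations, however. With the allogeneic sample in Cy5 the value was -0.12, below 0 on 11 of 12 arrays (limma, adjusted p = 0.0125), and with the allogeneic sample in Cy3 it was 0.23, below 0 on 0 of 12 (adjusted p = 7.56e-04), so that either orientation alone would have given a call, in opposite directions. *Igf2r*, the scavenging receptor of IGF-2, was at 13.30 to 14.98 (median 14.81) in the allogeneic and 13.34 to 14.84 (median 14.59) in the syngeneic explants. Its log2-fold change was 0.20 ± 0.27 (SD, n = 12 rats, limma, adjusted p = 0.0835), above 0 in 10 of 12 rats. Rat 8 held the highest value (0.96), far from the next (0.40). Without rat 8 the mean fell to 0.13 but the spread did too, and the probe passed the test (adjusted p = 0.0289), as it did with array 2 only for rat 10 (0.24, adjusted p = 0.0377). With median centring in place of loess the value was 0.08 (adjusted p = 0.362), and on the 3 slides it was 0.24, 0.35 and 0.01.

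**Figure D3:**
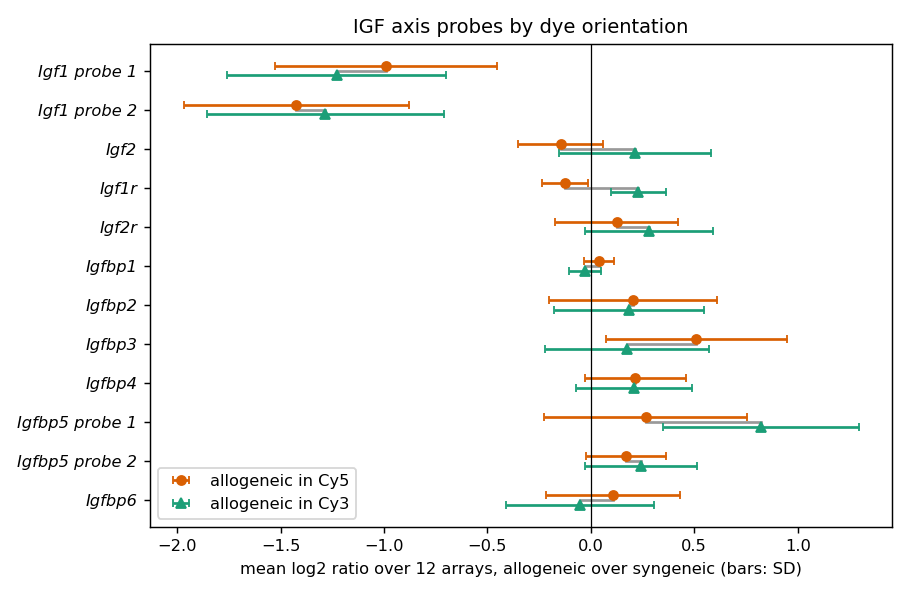
The mean log2 ratio of each IGF axis probe is plotted separately over the 12 arrays with the allogeneic sample in Cy5 (circles) and the 12 with it in Cy3 (triangles), with bars for the SD. The *Igf1* probes are near the same place in both, whereas *Igf1r* moves from -0.12 to 0.23 and *Igf2* from -0.15 to 0.21.

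Among the binding proteins, *Igfbp3*, *Igfbp4* and *Igfbp5* were called as higher in the allogeneic sample, all by less than 2-fold. IGFBP-3 is the main carrier of IGFs in serum and is also made by skin fibroblasts. Its log2 intensity was 16.26, 16.47 and 16.82 (lowest, median and highest rat) in the allogeneic and 15.69, 16.21 and 16.50 in the syngeneic explants, so the groups overlapped. The log2-fold change of *Igfbp3* was 0.34 ± 0.35 (SD, n = 12 rats, limma, adjusted p = 0.027), above 0 in 11 of 12 rats, from -0.10 in rat 11 to 1.13 in rat 8. The call was lost without rat 4 (0.30, adjusted p = 0.0562) and without rat 9 (0.32, adjusted p = 0.06). The value was also 0.51 with the allogeneic sample in Cy5 and 0.18 with it in Cy3, where 5 of 12 arrays lay below 0. On the 3 slides it was 0.38, 0.46 and 0.19.

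*Igfbp5* codes for a binding protein that attaches to the extracellular matrix. With probe 1, its log2 intensity was 9.30, 9.91 and 11.32 (lowest, median and highest rat) in the allogeneic and 9.02, 9.46 and 10.41 in the syngeneic explants. The highest allogeneic values were those of rats 7, 5, 1 and 9, and the groups overlapped. The log2-fold change was 0.54 ± 0.47 (SD, n = 12 rats, limma, adjusted p = 0.0101), above 0 in 11 of 12 rats, and it was past the threshold whichever rat was left out (0.47 to 0.60). Its means on the 3 slides were 0.48, 0.64 and 0.51. It was 0.27 with the allogeneic sample in Cy5 (adjusted p = 0.142) and 0.82 with it in Cy3. Probe 2 lay close to background, at 6.53 to 9.45 (median 6.84) in the allogeneic and 6.54 to 9.22 (median 6.70) in the syngeneic explants, and gave a smaller change of 0.21 ± 0.22 (SD, n = 12 rats, limma, adjusted p = 0.035), also above 0 in 11 of 12 rats. This call was lost without any of 7 of the 12 rats, with the slide as a block (adjusted p = 0.0554), in the mixed-effects ANOVA named by the methods (0.0536) and with median centring (0.056). The value was 0.34 ± 0.30 (SD) below that of probe 1 (exact sign-flip permutation test, two-sided p = 0.00244, adjusted p = 0.00244 over the same 2 comparisons, n = 12 rats). That gap depended on the processing: with the processed signals of the scanner software the probes were at 0.59 and 0.59 (difference -0.0060, exact p = 0.957), in the authors' series table at 0.57 and 0.43 (difference -0.15, exact p = 0.109), and with the allogeneic sample in Cy5 only the difference was -0.09 (exact p = 0.359). Rat 11 had the value below 0 with probe 1 and rat 8 with probe 2. The mean of both probes was 0.38 ± 0.33 (SD, n = 12, limma, adjusted p = 0.0133).

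*Igfbp4*, which codes for a binding protein that mainly inhibits IGF action, was at the edge of the threshold. Its log2 intensity was 8.74 to 11.22 (median 10.59) in the allogeneic and 8.20 to 11.60 (median 10.37) in the syngeneic explants. The log2-fold change was 0.21 ± 0.25 (SD, n = 12 rats, limma, adjusted p = 0.0493), above 0 in 11 of 12 rats, with rat 8 as the exception at -0.37. The 3 slides gave 0.25, 0.04 and 0.35, and the lowest of these is the slide of rat 8. Leaving out any of 10 of the 12 rats took it past 0.05, whereas without rat 8 it was 0.26 (adjusted p = 0.00218), and with array 2 only for rat 10 it was 0.23 (adjusted p = 0.0529).

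The remaining binding proteins were not called. *Igfbp2* was at 0.19 ± 0.38 (SD, n = 12 rats, limma, adjusted p = 0.232, 95% confidence interval -0.05 to 0.43), above 0 in 9 of 12 rats. The values ran from -0.43 in rat 8 to 0.71 in rat 2, and rats 4 and 6 were also below 0. *Igfbp6*, whose protein prefers IGF-2, was at 0.03 ± 0.32 (SD, n = 12 rats, limma, adjusted p = 0.87, interval -0.18 to 0.23), with rat 8 at -0.81 and the other rats at -0.18 to 0.40. *Igfbp1*, whose protein is known chiefly as an insulin-regulated product of the liver, showed the least movement, at 0.01 ± 0.06 (SD, n = 12 rats, limma, adjusted p = 0.88, interval -0.03 to 0.05). Its log2 intensity was 6.97 to 8.04 (median 7.73) in the allogeneic and 6.95 to 7.93 (median 7.72) in the syngeneic explants.

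Across the 12 rats, the change of *Igf1* was compared with that of each of the other 9 genes of the axis. A larger decrease of *Igf1* went with a larger increase of *Igfbp5* (Pearson r = -0.846, permutation p = 6.10e-04, adjusted p = 0.00549 over 9 relations; Spearman rho = -0.783, permutation p = 0.00381, adjusted p = 0.0343). The Pearson r was -0.801 without rats 8 and 9, the farthest from the median of *Igf1*, -0.844 without rat 8 alone, and -0.85 after centring on the slide means. Rats 7 and 9 had both the largest decreases of *Igf1* (-1.91 and -2.31) and the largest increases of *Igfbp5* (1.08 and 0.90), and rats 8 and 11 the smallest changes of either. Both genes are read from the same arrays, and how many of all genes had as strong a correlation with *Igf1* is not given here. For *Igfbp1* the rank correlation alone passed (rho = 0.727, permutation p = 0.00896, adjusted p = 0.0403; r = 0.605, permutation p = 0.0372, adjusted p = 0.168), with r = 0.522 without rats 8 and 9, over changes of *Igfbp1* that reached no more than 0.11 in size. The other 7 relations had Pearson r between -0.517 and 0.38, with adjusted permutation p of 0.274 or more. Without rat 8 the sign of r turned for *Igf2r* (0.38 to -0.0868), *Igfbp2* (-0.213 to 0.0478) and *Igfbp3* (0.121 to -0.347).

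**Figure D4:**
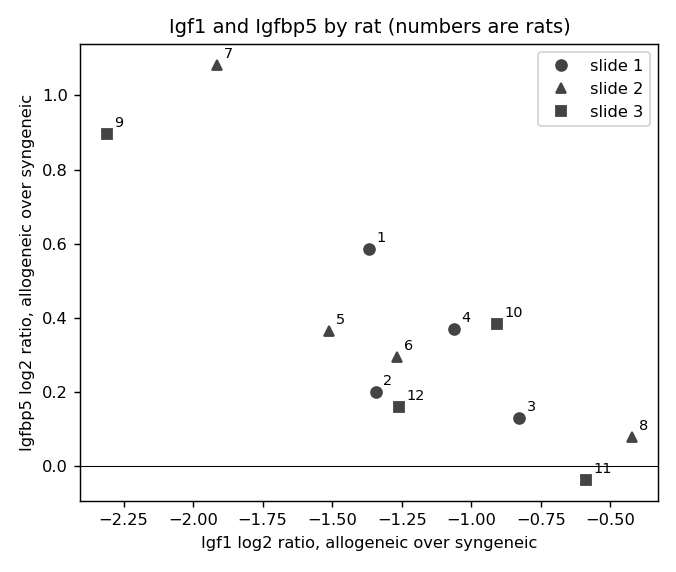
The log2 ratio of *Igfbp5* is plotted against that of *Igf1*, each the mean of 2 probes, for the 12 rats, which are numbered and marked by slide. The points fall from rats 7 and 9 at the upper left to rats 8 and 11 at the lower right (r = -0.846).

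Over 6407 genes outside the axis with a probe well above background, the 5 whose log2 ratios followed those of *Igf1* most closely over the 12 rats were *Ly49si3* (r = 0.951, log2-fold change -1.16), *Pcsk1* (0.949, -0.82), *Lcp2* (0.949, -0.78), *Ly49si2* (0.948, -1.35) and *Or5b123b* (0.937, -0.16). *Pcsk1* codes for a prohormone convertase, *Lcp2* for an adaptor protein of T cell and myeloid receptors, *Or5b123b* for an olfactory receptor, and the *Ly49* genes for receptors of the NK complex. They were chosen for this likeness, so the correlations are a description. The *Ly49* genes are close paralogs, and signal at their probes may be shared between them.

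Genes that act before or after the IGF axis were read from lists, with the mean over the probes of each gene and adjustment over 7250 genes, of which 16.3% were called, 7.6% as lower and 8.68% as higher. Of the insulin genes, their receptors and the receptor substrates, 9 of 10 listed were measured and 0 were called, with 3 at an unadjusted p under 0.05 (limma, 0.09 for *Irs2*, adjusted p = 0.0589, and 0.08 for *Grb14*, adjusted p = 0.0813, were nearest). In the PI3K, Akt and mTOR branch 21 of 26 were measured and 1 was called, *Pik3r3*, a regulatory subunit of PI3K, at -0.10 ± 0.09 (SD, limma, adjusted p = 0.0134). In the Ras and MAP kinase branch 11 of 15 were measured. There *Grb2*, the adaptor that links receptor kinases to Ras, fell by 0.26 ± 0.11 (SD) on the log2 scale in 12 of 12 rats (limma, adjusted p = 1.58e-04), and *Hras* rose by 0.14 ± 0.11 in 12 of 12 (adjusted p = 0.00968). The medians of these 3 lists were 0.00, 0.01 and 0.02, against 0.01 over all genes. The called shares of the insulin and PI3K lists were below the 16.3% of all genes, and 2 of 11 is close to it.

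Of the growth hormone branch, which drives *Igf1* transcription in many tissues, all 11 genes listed were measured and 3 were lower. Over all genes 7.6% were called as lower and 16.3% in either direction. *Ghr*, the growth hormone receptor, was at -0.37 ± 0.20 (SD, n = 12 rats, limma, adjusted p = 6.24e-04) and was below 0 in 11 of 12 rats. *Socs1* was at -0.35 ± 0.24 and *Cish* at -0.23 ± 0.17, each below 0 in 12 of 12 rats (limma, adjusted p = 0.00376 and 0.00529), and both code for feedback inhibitors of cytokine receptors. The median of the branch was -0.07. The growth hormone gene *Gh1* (0.00), *Jak2* (0.26), *Stat5a* (-0.10), *Stat5b* (-0.07), *Socs2* (-0.07) and *Igfals* (-0.08), whose protein joins IGF-1 and IGFBP-3 in the serum complex, did not pass the test. Of the proteases and regulators of the binding proteins, 6 of 16 were measured and 1 was called, a share close to that over all genes. The gene called was *Htra1*, a secreted serine protease that cleaves IGFBP-5 and matrix proteins. It was at 0.48 ± 0.19 (SD, n = 12 rats, limma, adjusted p = 1.36e-04), above 0 in 12 of 12 rats. Of the relatives of the binding proteins outside the rule, 4 of 11 were measured and 2 were called, the matricellular growth factors *Ccn2* (0.46 ± 0.28 SD) and *Ccn4* (0.47 ± 0.33), both above 0 in 11 of 12 rats (limma, adjusted p = 0.00139 and 0.00384).

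Cell type markers were read in the same fit, in which 7.6% of all genes were called as lower and 8.68% as higher. The skin lists were thin, with 3 of 22 keratinocyte markers measured (*Itga6*, *Tp63* and *Cdh1*, 0 called by limma and 1 at an unadjusted p under 0.05), 8 of 17 fibroblast and 9 of 11 endothelial markers. No keratin gene was among them. All markers measured in these lists were well above background on at least 12 arrays in 1 group or both. Of the macrophage and myeloid markers, 14 of 21 were measured and 9 were lower, with a median of -0.65. *Fcgr3a*, an Fc receptor, was at -2.19 ± 0.40, *Trem2* at -1.69 ± 0.67 and *Ctss*, a lysosomal protease, at -1.40 ± 0.61 (SD), each below 0 in 12 of 12 rats. The 5 markers of the list that did not pass ran from -0.46 (*Mrc1*) over *Adgre1* (-0.07) and *Cd14* (0.01) to *Clec4f* (0.14) and *Cd163* (0.18), the last 2 above 0 in 10 and 9 of 12 rats. The summed linear intensity of the list was 23324 to 53276 in the allogeneic and 40773 to 116731 in the syngeneic explants. Of T cell markers 5 of 11 measured were lower and of NK cell markers 4 of 8, and of B cell markers 0 of 4 were called by limma (1 at an unadjusted p under 0.05). Of the fibroblast markers 4 were higher and 1 lower, with a median of 0.33 (*Postn* 0.79, *Col1a2* 0.55, *Pdgfrb* 0.43), and of the endothelial markers 3 were higher. Their summed linear intensity was 30165 to 86176 in the allogeneic and 25485 to 85486 in the syngeneic explants for fibroblasts, and 14268 to 40312 against 12451 to 32408 for endothelial cells. Of 5 fat cell markers 2 were lower and 1 higher, and 0 of 2 muscle markers were called by limma, or had an unadjusted p under 0.05.

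*Igf1* was lower in the same samples as 9 of the 14 macrophage and myeloid markers measured. *Igfbp5* was higher in the same samples as 4 of the 8 fibroblast markers measured. Of the other fibroblast markers, *Fn1* was lower, at -0.36 ± 0.39 (SD, n = 12 rats, limma, adjusted p = 0.0351), and 3 were not called. Over the 12 rats, and in 4 relations chosen after the lists had been seen, the change of *Igf1* followed the mean change of the macrophage list (r = 0.856, permutation p = 4.20e-04, adjusted p = 0.00168; rho = 0.825, permutation p = 0.00175, adjusted p = 0.007). It was 0.679 without the 2 rats farthest from the median of the list and 0.873 after centring on slide means. The change of *Igfbp5* had r = -0.75 with the same list (permutation p = 0.00546, adjusted p = 0.0109; rho = -0.643, permutation p = 0.0273, adjusted p = 0.0547; -0.588 without the 2 farthest). With the fibroblast list, *Igf1* had r = -0.151 (rho = -0.112, permutation p = 0.639 and 0.733) and *Igfbp5* r = 0.40 (rho = 0.406, permutation p = 0.195 and 0.191). No other marker list was compared with the genes in this way. Since the relations were chosen from these same data, their p-values are a description. How many of all genes followed *Igf1* as closely is not given here. Some T cell and NK cell markers were lower too, and whether the relation is particular to the macrophage list was not tested. The part of the cell types in the changes of *Igf1* and *Igfbp5* was not tested.

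**Figure D5:**
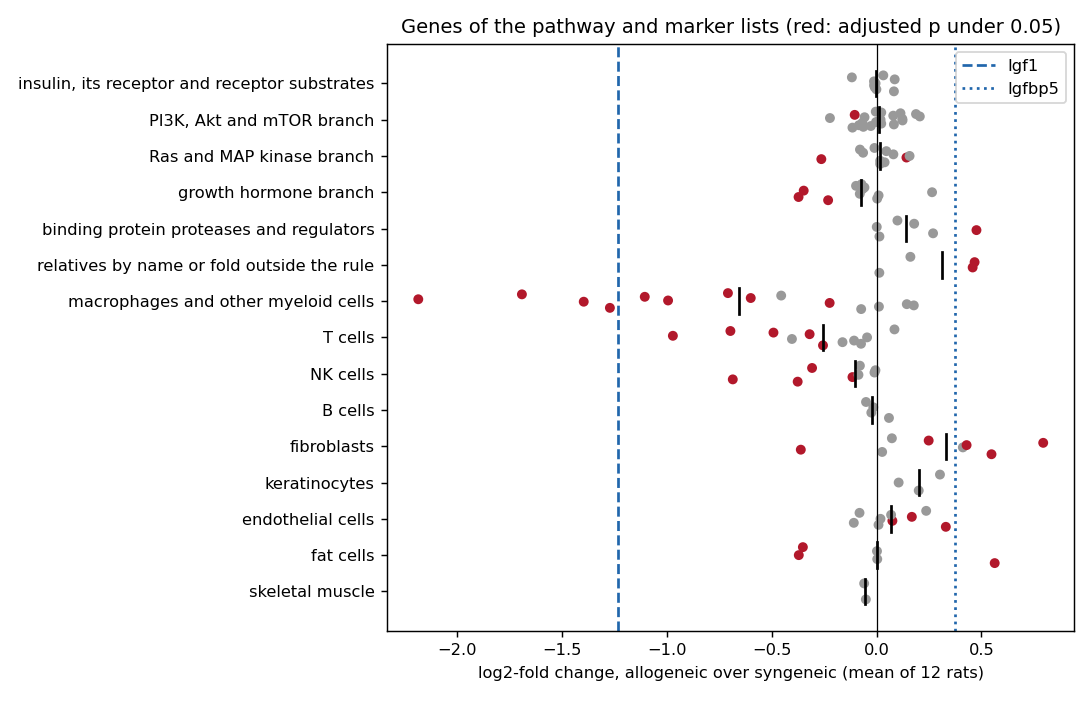
Each point is the mean log2-fold change of a gene over 12 rats, by list, with black bars for the median of a list, red for an adjusted p under 0.05, and vertical lines for *Igf1* (-1.23) and *Igfbp5* (0.38). The signaling lists lie near 0, the macrophage list has 9 red genes below 0, and the fibroblast list has 4 red genes above 0 and 1 below.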

How the data were processed

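Each rat was 1 replicate, and samples were assigned to rat and dye by the sample labels. The mean and local background intensities of the spots were extracted from the images with Feature Extraction (version 9.5.1.1 per the file headers; the methods name an earlier one) and deposited by the authors without normalization. Intensities processed by the software (background subtraction, dye normalization) are in the same deposited files. The labels and the methods name different amplification kits. The authors also deposited a table of log2 ratios after loess normalization, whose columns state no direction beyond the sample titles (stimulated against nonstimulated) and which followed the allogeneic over syngeneic ratio on all 24 arrays (r = 0.707 to 0.955). Its column medians lay between -0.03 and 0.02. Both were used as alternatives.

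Intensities were corrected by normexp (offset 50) and normalized by loess within arrays in limma 3.58.1 (R 4.3.3). Control and outlier spots (161 to 228 per array) were left out. Ratios were turned to allogeneic over syngeneic, averaged per probe, then per rat, and tested against 0, which pairs the explants of a rat. The study's own test, a mixed-effects ANOVA, was an alternative. Levels per channel were scaled between arrays by Aquantile. Correlations were tested with 100000 permutations. Symbols were taken from RefSeq by accession for 4685 probes and kept as in the file for 3768. All axis genes, up to 3 called genes per pathway list and up to 3 markers per list were named, with the 5 genes most like *Igf1*. Further genes of the pathway and marker lists (*Irs2*, *Grb14*, the growth hormone genes and the macrophage markers that were not called, and the fibroblast marker *Fn1*) were named after their values were seen. So was the macrophage marker *Aif1*. The members and lists were chosen with earlier results of these data known. The test was checked on simulated data. Precision is limited by the number of rats, and p-values measure the spread between the 12 rats.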

Additional observations from a re-analysis of the deposited data

How the results depend on the processing

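The decrease of *Igf1* kept its direction and its call under 13 of 14 alternatives and without any of the 12 rats (-1.17 to -1.01 for probe 1 and -1.44 to -1.26 for probe 2). The exception was the sign of rat 5 turned, a setting tried in earlier work on these data with no label behind it. It left 0 axis probes and 0 of all probes past the threshold of limma (6 and 1844 at an unadjusted p under 0.05), with *Igf1* at -0.88 (adjusted p = 0.0791) and -1.08 (0.0744), *Igf2* at -0.0196, *Igfbp3* at 0.32, *Igfbp4* at 0.18, *Igfbp5* at 0.47 and 0.16, and *Igfbp6* at -0.0133. With median centring in place of loess 3 axis probes were called, both *Igf1* probes and *Igfbp5* probe 1, while *Igfbp3* was 0.15 (adjusted p = 0.228), *Igfbp4* 0.20 and *Igfbp5* probe 2 0.20, and *Igf2r*, not called, was 0.08. With the allogeneic sample in Cy5 only, 2659 of all probes were called, and *Igf2* was -0.15, *Igf1r* -0.12 and *Igfbp5* probe 1 0.27. With it in Cy3 only, 2500 were called, with *Igf1r* at 0.23, *Igf2r* 0.28, *Igfbp1* -0.028, *Igfbp3* 0.18, *Igfbp4* 0.21 and *Igfbp6* -0.0516. Both orientations together are the value reported.

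The call of *Igfbp4* was also lost with the processed signals of the scanner software (0.23), the mixed-effects ANOVA (0.21, adjusted p = 0.0714), the exact signed-rank test (0.21, 0.07), the authors' series table (0.21) and array 2 only for rat 10 (0.23), a setting added after seeing the data, under which *Igfbp1* was -0.0015 and *Igf2r* 0.24. That of *Igfbp5* probe 2 was lost with the slide as a block (0.21, adjusted p = 0.0554) and the ANOVA (0.21, 0.0536), and its value was 0.43 in the series table and 0.59 in the processed signals. *Igf2r* passed with the signed-rank test (0.20, adjusted p = 0.0305) and over 24 arrays with the rat as a random replicate block (0.20, 0.0432), a fit that called 7 axis probes and 1729 of all probes. Its pairing of arrays changed no other call of the axis. Without each rat in turn, *Igf2* was -0.0195 to 0.0697 (below 0 without rat 10), *Igf2r* 0.13 to 0.22, *Igfbp1* -0.0036 to 0.0146 (below 0 without rats 8, 11 or 12, the last 2 at -0.00054 and -0.00041), *Igfbp3* 0.27 to 0.38, *Igfbp4* 0.18 to 0.26, *Igfbp5* probe 2 0.16 to 0.24 (lost without 7 rats) and *Igfbp6* -0.0058 to 0.10 (below 0 without rat 9). The number of axis probes called ran from 3 (without rat 4 or rat 9) to 7 (without rat 8), and that of all probes from 1155 to 2087. The number of genes called was 1180 with the mean and with the median over probes. The cause of these shifts was not tested.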
